A study of Homo sapiens with 2 samples.

Results

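CER1/GSC cells were examined in H1 human embryonic stem cells (hESCs) after BMP4, as a small set of single cells that carry transcripts of CER1 and GSC. A cell belonged to the set when it had at most 7500 detected genes, at most 25% of its unique molecular identifiers (UMIs, 1 per captured transcript) from mitochondrial genes, at least 10000 UMIs, and at least 1 UMI of CER1 and GSC together per 10000 UMIs. This rule found 202 of 2173 cells in the WT library and 9 of 4038 cells in the GATA3 KO library, 211 of 6211 in all. The values of CER1 and GSC themselves chose these cells, so they are given only as a description.

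H1 is an established hESC line, and single-cell RNA-seq was performed on 1 library of each kind, both grown in mTeSR1 pluripotency medium and treated with BMP4 (bone morphogenetic protein 4, which drives differentiation) at 50 ng/ml. The WT library came from unmodified H1 cells. The GATA3 KO library came from KO-GATA3-06, a single GATA3-/- clone (GATA3 is a zinc-finger transcription factor) made from an H1 line with an inducible Cas9 cassette, so that clone, cassette and genotype cannot be told apart. Exposure was 48 h by the title and the recorded duration of both libraries, whereas the protocol text of the WT library says 1 h. Neither library was replicated, and for that reason no test is given. The 95% intervals cover counting error only and say nothing of the spread between cultures.

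The primitive streak is the site where the epiblast gives rise to mesoderm and endoderm, and the transcription factors MIXL1, EOMES and TBXT mark cells that enter it. At its anterior end, cells switch on GSC, a homeodomain repressor known from the organizer, and CER1, a secreted antagonist of Nodal and BMP ligands. High Nodal signalling is known to favour this anterior fate, from which definitive endoderm and axial and cardiac mesoderm arise.

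CER1 and GSC lie on different chromosomes (CER1 at chr9:14719724-14722733 and GSC at chr14:94768223-94770113, GRCh38, both on the minus strand, both protein-coding). Because the set is defined by these genes, the 250 bases before their starts in RefSeq (GRCh38.p14) are printed here, with those of MIXL1 (chromosome 1, plus strand) as a streak gene beside them. They were searched on both strands for TAATCC, the site of bicoid-type homeodomains such as GSC and OTX2, for the T-box letters GGTGTGA, and for AATNCACA, the site of the Nodal effector FOXH1. Capitals mark a match, and a match is a description of letters, not a bound site.
CER1 chr9:14722734-14722983: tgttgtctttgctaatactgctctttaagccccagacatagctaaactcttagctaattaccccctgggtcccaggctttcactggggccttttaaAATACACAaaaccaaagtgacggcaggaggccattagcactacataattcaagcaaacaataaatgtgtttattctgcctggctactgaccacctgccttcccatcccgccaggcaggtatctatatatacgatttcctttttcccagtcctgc
GSC chr14:94770114-94770363: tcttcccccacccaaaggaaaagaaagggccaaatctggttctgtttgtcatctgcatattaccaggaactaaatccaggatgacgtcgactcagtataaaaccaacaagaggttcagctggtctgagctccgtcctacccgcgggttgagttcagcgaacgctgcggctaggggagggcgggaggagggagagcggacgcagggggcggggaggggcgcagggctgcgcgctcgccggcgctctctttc
MIXL1 chr1:226223414-226223663: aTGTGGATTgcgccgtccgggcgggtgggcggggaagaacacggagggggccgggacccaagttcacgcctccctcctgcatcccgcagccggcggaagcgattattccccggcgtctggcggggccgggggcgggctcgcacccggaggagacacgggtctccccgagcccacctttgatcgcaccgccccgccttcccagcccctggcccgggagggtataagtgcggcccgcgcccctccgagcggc
The CER1 window held 1 match of the FOXH1 letters, AATACACA, from 154 to 147 bases before the start. In the MIXL1 window the same motif stood on the other strand (TGTGGATT, from 249 to 242 bases before the start), and the GSC window held none of the 3 motifs. Of 35116 promoter windows in the table, 2.89% held AATNCACA, 5.62% held TAATCC and 2.76% held GGTGTGA. Windows were found for 12 of the 17 genes looked up. The other streak genes, EOMES (1 window) and TBXT (2 windows), held none of the 3 motifs. Nor did DKK1, GATA6, GATA6-AS1, FLRT3 and CYP26A1. FREM1 held TAATCC in 1 of 3 windows, and CNKSR3 held GGTGTGA in 1 of 4 and AATNCACA in 1 of 4.

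The WT library held 3802 barcodes with 200569649 UMIs and the GATA3 KO library 6221 barcodes with 284280464 UMIs. After the limits, the median cell had 47122 and 44830 UMIs. The 2 libraries shared 8 barcodes, none of them among the CER1/GSC cells. GATA3 itself could not check the labels, since counts at the 3′ end of a transcript do not show a lesion in the coding sequence. It stood at 9.42 CPM (UMIs per 1000000; 89 UMIs) in the WT CER1/GSC cells and at 1 UMI in those of the GATA3 KO. Among the other streak cells defined below, a GATA3 UMI was present in 32.5% of 628 WT and 34.4% of 93 GATA3 KO cells.

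CER1/GSC cells made up 9.30% of the WT cells (95% exact interval 8.11 to 10.6) and 0.223% of the GATA3 KO cells (0.102 to 0.423). Of the WT members, 161 carried UMIs of both genes, 34 of CER1 only and 7 of GSC only. The rule was reached on CER1 alone by 165 of the 202 and on GSC alone by 63, with 49 counted in both groups and 23 reaching it only through the sum. The summed level, called the CER1+GSC score here (UMIs per 10000), ran from 1.01 through a median of 3.46 to 57.4. The 5 cells just inside the threshold had scores of 1.01 to 1.03 and the 5 just outside 0.931 to 0.968, and 85 further WT cells lay between 0.5 and 1. The set is therefore the upper range of a continuous level, and its size depends on the threshold.

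**Figure D1:**
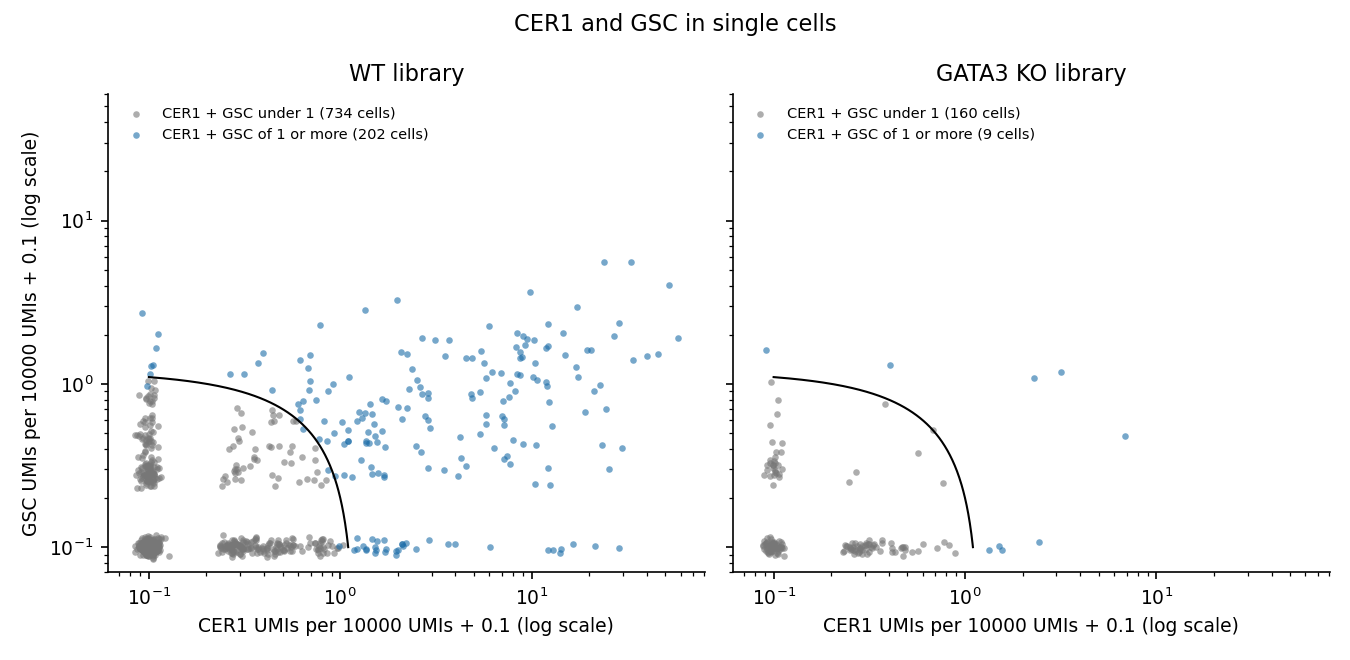
CER1 against GSC in each cell, in UMIs per 10000 UMIs of the cell plus 0.1 on log axes, with a small random shift so that cells do not hide each other. Only cells within the limits that carry a CER1 or GSC UMI or meet the streak rule are drawn, the black line is the rule (CER1 + GSC of 1), and the 202 WT members spread to far higher CER1 than the 9 GATA3 KO members.

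A streak score, MIXL1, EOMES and TBXT UMIs per 10000 of the cell, was used to place these cells. Of the 202 WT members, 198 had a streak score of at least 1, as did 7 of the 9 in the GATA3 KO library. Of all cells with such a score, 24.0% (198 of 826; 21.1 to 27.0) were CER1/GSC cells in the WT library and 7.0% (7 of 100; 2.86 to 13.9) in the GATA3 KO library. The GATA3 KO library held fewer streak cells (2.48% against 38.0% of its cells), and most of them had low streak scores, 77 of 100 under 3 against 340 of 826 in the WT library. In the WT library the share of CER1/GSC cells went up with the streak score, from 3.82% (13 of 340) at scores of 1 to 3 through 15.0% at 3 to 6 and 34.6% at 6 to 10 to 80.8% (105 of 130) at 10 and over. In the GATA3 KO library it was 0 of 77, 3 of 13, 3 of 9 and 1 of 1 in the same ranges. At the WT share of each range 8.81 of the 100 cells would have been CER1/GSC cells, near the 7 found, so a lower share at like streak score was not detectable at this depth. The 628 WT cells with a streak score of at least 1 but a CER1+GSC score under 1 are called other streak cells below, and serve as the comparison. The members had a median streak score of 10.3, against 2.86 in the other streak cells, so the sets differ in streak gene level as well as in CER1 and GSC. Their median depths were close, at 47802.5 and 49635 UMIs, with 6360 and 6492.5 detected genes and 10.9% and 11.4% mitochondrial UMIs.

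The markers of the anterior streak were high in these cells. CER1 stood at 648.5 CPM (632.4 to 665.0) in the members and 8.54 CPM in the other streak cells, and GSC at 75.8 CPM (70.3 to 81.5) and 8.17 CPM, as the rule requires. LHX1, a LIM homeodomain factor of the organizer, was at 47.4 CPM (43.1 to 52.0) against 2.07 CPM (1.58 to 2.66), 22.9-fold higher (17.5 to 30.5). MESP1, the factor of early cardiac and cranial mesoderm, was at 124.1 CPM (117.1 to 131.5) against 10.3 CPM (9.21 to 11.6), 12.0-fold higher (10.6 to 13.7), a ratio that depends on the streak level of the cells it is set against, as given further on. EOMES and MIXL1, which enter the streak score, were at 275.6 and 711.1 CPM in the members and 121.0 and 215.7 CPM in the other streak cells, while TBXT was nearer, at 67.0 and 46.7 CPM. The label was not tested by these levels. LHX1 and OTX2, which the rule did not use, were also higher in the members among cells of like streak score, as given further on. Both were under 10 CPM in the other streak cells and so entered the comparison only through the members. After thinning to 10000 UMIs, OTX2 was detected in 23.3% of the members and also in 16.5% of 508 WT cells rich in SOX2 and without streak UMIs. Genes of the posterior streak (EVX1, WNT5A and FGF17) were higher as well, and they too entered only through the members. Several genes of the mature organizer and node were almost absent. CHRD and NOG, which bind BMP ligands, had 1 UMI each in the 202 cells, SHH 3 and NOTO 0, and FOXA2, a forkhead factor of endoderm and node, had 26 UMIs in 11 cells. The cells are therefore called by their rule.

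Single cells showed the same markers. After each cell had been thinned to 10000 UMIs, LHX1 was detected in 28.7% of the WT members and 2.23% of the other streak cells, and MESP1 in 40.6% and 5.41%. As a background, the 508 SOX2-rich WT cells (median depth 46073.5 UMIs) carried LHX1 in 0.787% and MESP1 in 0.984%. Without thinning, LHX1 had a UMI in 45.5% of the members, 7.17% of the other streak cells and 5.31% of the SOX2-rich cells.

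Over the 7523 genes that reached 10 CPM in either set, 60 (0.798%) were at least 2-fold higher in the members than in the other streak cells and 26 (0.346%) at least 2-fold lower, on the log2(CPM + 1) scale. This scale understates the ratio of low genes. The median log2 ratio of all 7523 was 0.01. Of the 60, 40 were under 10 CPM in the other streak cells and so entered only through the members, in which case they had to be higher. For that reason the counts of lists given further on describe the members and support nothing.

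**Figure D2:**
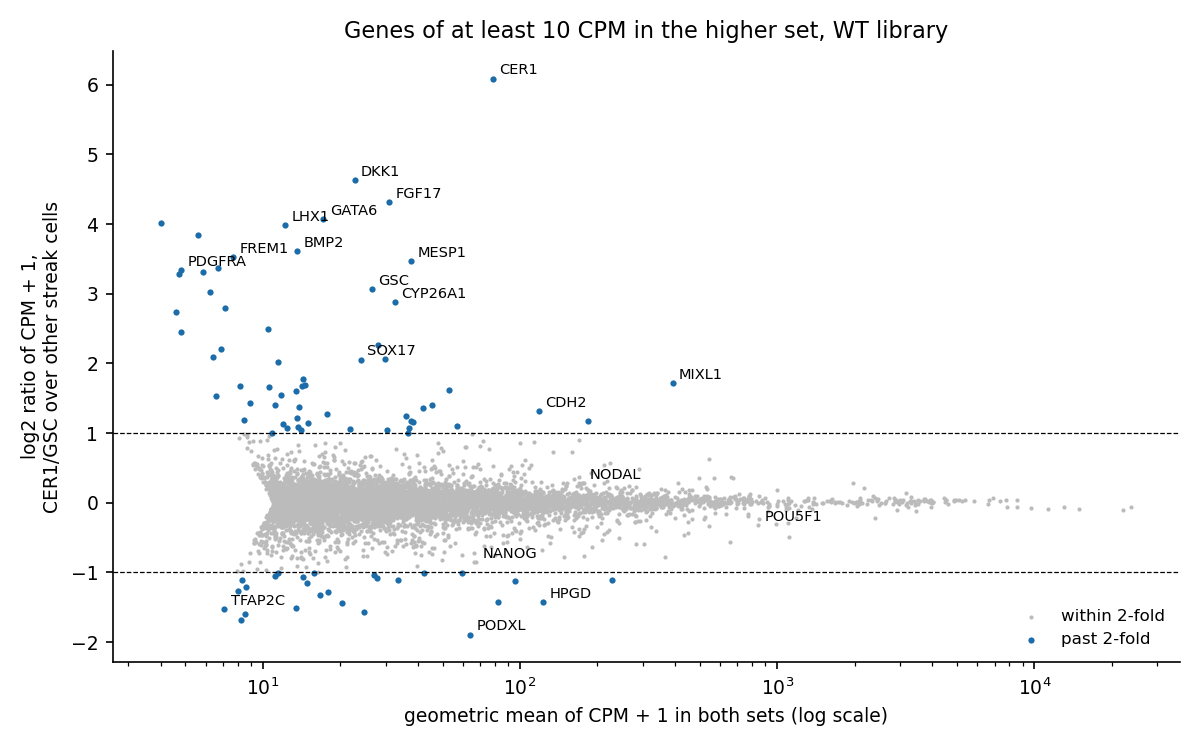
The log2 ratio of CPM + 1 of the WT CER1/GSC cells over the other streak cells (vertical axis) against the geometric mean of both levels (log axis), for the 7523 genes that reached 10 CPM in either set. Dashed lines mark 2-fold, blue points lie past them, and the 60 genes above the upper line include DKK1, FGF17, GATA6 and LHX1.

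Ligands and antagonists among the higher genes are given first. DKK1, which blocks Wnt co-receptors, was at 112.4 CPM (105.7 to 119.4) in the members and 3.56 CPM (2.91 to 4.31) in the other streak cells, 31.6-fold higher (25.8 to 39.0). DKK4, a second Dickkopf protein, had 144 UMIs in the members (15.2 CPM) and 0 in the other streak cells, which makes it at least 149.9-fold higher against a floor of 3 counts. FGF17 was at 137.5 CPM against 5.97 CPM, 23.0-fold higher (19.7 to 27.1). BMP2, a ligand of the same receptors as the added BMP4, was at 46.4 CPM against 2.88 CPM (16.1-fold, 12.7 to 20.5). Others of the highest genes lie close to members of the same list. FREM1, an extracellular matrix gene near CER1 on chromosome 9, was at 25.1 CPM against 1.25 CPM, and GATA6-AS1, which lies head to head with GATA6 and partly overlaps it, at 20.1 CPM against 0.47 CPM. Strand use in the counting is not given in the sources used here, so reads of GATA6 and GATA6-AS1 may be mixed.

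The other genes among the 12 highest follow. GATA6, a zinc-finger factor of endoderm and early mesoderm, was at 69.6 CPM (64.4 to 75.2) against 3.19 CPM (2.57 to 3.90), 21.9-fold higher (17.6 to 27.4). FLRT3, an adhesion protein needed for endoderm migration, was at 20.5 CPM against 1.08 CPM. CYP26A1, which degrades retinoic acid, was at 87.6 CPM against 11.1 CPM (7.93-fold, 6.97 to 9.04). This ratio depended on the streak score, as given further on. CNKSR3, a scaffold protein, was at 23.9 CPM against 3.42 CPM, and the long non-coding RNA AC025171.5 at 60.5 CPM against 11.8 CPM.

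**Figure D3:**
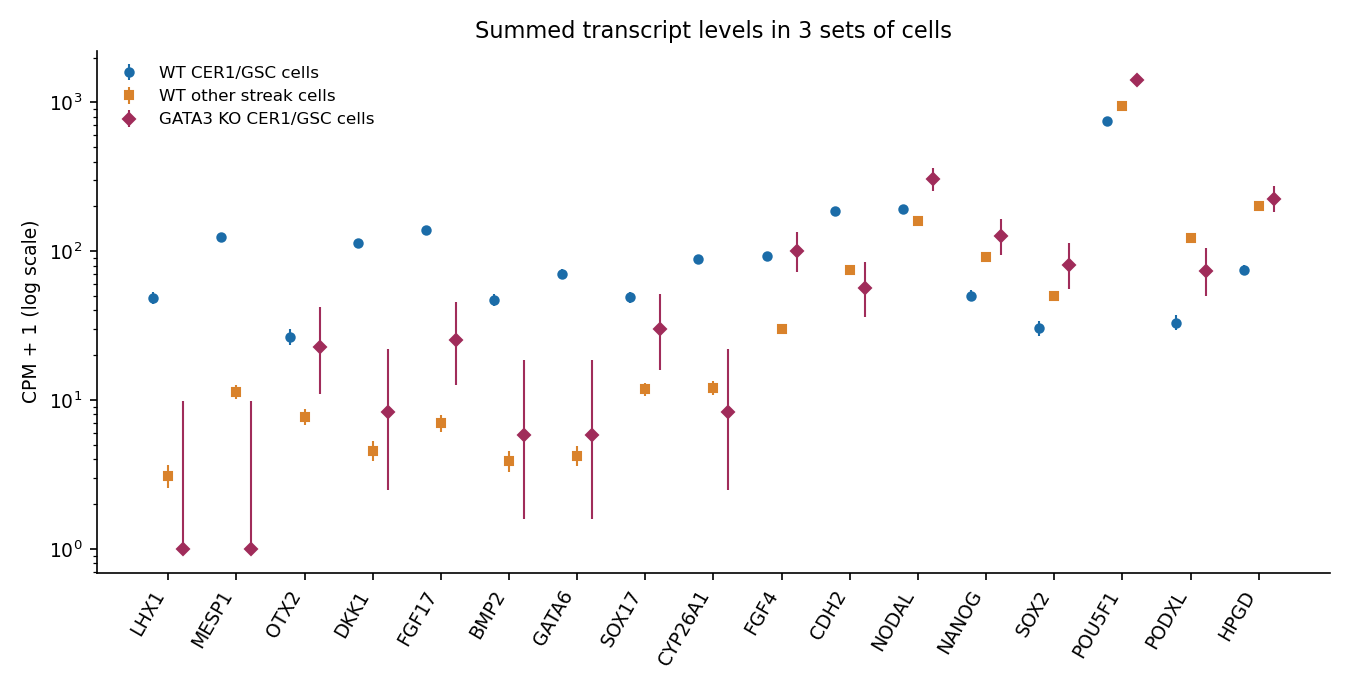
Summed levels (CPM + 1, log axis) of 17 genes in the WT CER1/GSC cells (circles), the WT other streak cells (squares) and the 9 GATA3 KO CER1/GSC cells (diamonds), with 95% counting intervals that do not cover differences between cells. LHX1, MESP1, DKK1, FGF17, BMP2 and GATA6 are highest in the WT members, while NODAL, NANOG, SOX2 and POU5F1 are highest in the GATA3 KO members.

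The lists were chosen with earlier results of these data known, and their counts stand beside the 0.798% higher and 0.346% lower of all genes. Of 15 mesoderm genes, 6 reached 10 CPM and 5 of these were at least 2-fold higher (MESP1, PDGFRA, SNAI1, APLNR and FOXC1), 4 of which entered only through the members. PDGFRA, a growth factor receptor of nascent mesoderm, was at 14.3 CPM against 0.51 CPM, and APLNR, the apelin receptor, at 17.7 CPM against 1.69 CPM. KDR, the VEGF receptor of blood and vessel precursors, was the sixth, at 96.2 CPM against 115.3 CPM. HAND1 was at 9.31 CPM in the members, with 54.5% of its 88 UMIs in 5 cells. At like streak score FOXC1 was 11.1-fold higher (2.98 to 50.4) at 3 to 6 but 1.66-fold (0.901 to 3.36) at 10 and over.

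Of 15 organizer and anterior genes, 6 reached 10 CPM and 4 were at least 2-fold higher (LHX1, OTX2, DKK1, SOX17), 3 of which entered only through the members. OTX2, a homeodomain factor of the anterior embryo, was at 25.6 CPM against 6.75 CPM (3.80-fold, 3.13 to 4.6). FST, an activin antagonist, was alike in both at 81.9 and 80.7 CPM. HHEX, a factor of anterior endoderm, was at 6.88 CPM against 0.85 CPM, under the minimum of 10 CPM.

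Definitive endoderm genes were mostly low. Of 13, 3 reached 10 CPM: SOX17 and GATA6 were at least 2-fold higher and APELA, a peptide hormone, at least 2-fold lower (9.0 against 21.2 CPM). GATA6 entered only through the members. CXCR4, the receptor used to sort definitive endoderm, had 1 UMI in all 202 cells. Of 13 hypoblast and visceral endoderm genes, a cell type that also uses CER1, 5 reached 10 CPM and BMP2, GATA6 and PDGFRA were at least 2-fold higher, whereas its defining genes APOB, TTR and HNF4A were at 0 UMIs and COL4A1 and LAMA1 were within 2-fold. BMP2, GATA6 and PDGFRA each entered only through the members.

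Signalling lists differed in how many members moved apart. None of the 14 measured Nodal pathway genes of 19 listed was past 2-fold, with a median log2 ratio of 0.06. NODAL was at 192.5 CPM against 158.5 CPM, its co-receptor TDGF1 at 453.7 CPM against 373.8 CPM and FOXH1 at 98.1 CPM against 57.2 CPM, while the Nodal inhibitors LEFTY1 and LEFTY2 were at 7.30 and 5.82 CPM against 12.9 and 9.53 CPM. Of 21 Wnt genes, 10 were measured and 4 were at least 2-fold higher: DKK1, DKK4, WNT5A and RSPO3, of which the first pair are antagonists and all of which entered only through the members. The Wnt targets SP5 (106.3 against 75.8 CPM) and AXIN2 (7.09 against 6.07 CPM) were within 2-fold or under the minimum. Of 20 BMP genes, 13 were measured and BMP2 alone was past 2-fold, while the BMP targets ID1, ID2, ID3 and ID4 were each lower by less than 2-fold, ID1 at 386.2 against 521.9 CPM. BMP2 entered only through the members. Of 15 FGF genes, 13 were measured and the ligands FGF4, FGF17 and FGF19 were at least 2-fold higher, FGF8 being at 26.7 against 36.3 CPM. Of the 3 higher ligands, 2 entered only through the members.

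Other lists gave the state of these cells. Of 9 measured epithelial-mesenchymal genes, 2 were at least 2-fold higher, CDH2 (N-cadherin) at 185.7 CPM against 74.0 CPM and SNAI1, a repressor of E-cadherin, at 13.7 CPM against 4.44 CPM. SNAI1 entered only through the members. CDH1 (E-cadherin) was at 61.5 CPM against 86.0 CPM. At like streak score CDH2 was under 2-fold in each range, 1.49-fold at 6 to 10 and 1.85-fold at 10 and over. SNAI1 stood at 0.87 times (0.447 to 1.63) at 6 to 10 and 2.16-fold (1.15 to 4.47) at 10 and over. None of the 11 measured pluripotency genes was past 2-fold, although NANOG (49.3 against 90.1 CPM), SOX2 (29.4 against 49.2 CPM) and POU5F1 (753.9 against 943.6 CPM) were each lower. For SOX2 this did not hold at every streak score, since it was 1.52-fold higher (1.13 to 2.0) in members of scores 1 to 3 and 1.33-fold (0.881 to 2.07) in those of 10 and over. Of the posterior streak genes, EVX1, WNT5A and FGF17 were at least 2-fold higher of 5 measured, each of which entered only through the members. CDX1, CDX2 and CDX4 were under 10 CPM. Of the amnion and trophectoderm genes, 3 of 14 reached 10 CPM and TFAP2C was at least 2-fold lower, at 3.18 CPM against 11.0 CPM. OTX2 alone of 2 measured neural genes was past 2-fold, SOX17 (higher) and TFAP2C (lower) were past it of 3 measured germ cell genes, and none of 5 stress, 12 S-phase and 12 G2/M genes was.

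Among the lowest genes, PODXL, a sialomucin of epithelial cells, was at 32.2 CPM (28.7 to 36.0) in the members and 122.1 CPM (118.2 to 126.2) in the other streak cells, 0.263 times as high (0.234 to 0.296). C9orf135, ACTA1, ITGA6, PCAT14, HPGD, CYR61 and PDGFA completed the 8 lowest, with ratios of 0.32 to 0.391. ITGA6, an integrin of basement membrane contacts, was at 11.3 against 32.3 CPM, and HPGD, which degrades prostaglandins, at 74.1 against 200.4 CPM. In cells of like streak score HPGD was 1.26 times as high in the members (1.01 to 1.56) at scores of 6 to 10, and 0.819 times (0.575 to 1.19) at 10 and over.

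Since the members also had more of the streak genes, both kinds of cells were set side by side within the same range of streak score, a choice made after the data were seen. Cells of scores 1 to 3 numbered 13 members and 327 others, of 3 to 6, 33 and 187, of 6 to 10, 47 and 89, and of 10 and over, 105 and 25. At scores of 10 and over, LHX1 was at 75.7 CPM in the members and 8.10 CPM in the others (9.35-fold, 5.03 to 19.7), and a UMI of it was present in 67 of 105 and 6 of 25 cells. DKK1 was at 180.6 CPM against 13.8 CPM (13.1-fold, 8.14 to 22.6). These genes were still far apart in cells of like streak level. FGF17 (185.9 against 29.2 CPM), BMP2 (65.3 against 14.6 CPM), CYP26A1 (133.1 against 36.5 CPM) and FLRT3 (32.1 against 3.24 CPM) were also at least 3.65-fold higher there. GATA6 was at 101.8 against 34.0 CPM, 2.99-fold higher (2.18 to 4.20), and OTX2 was 2.26-fold higher (1.37 to 3.98). CYP26A1 was less far apart at lower scores, at 1.49-fold (0.397 to 4.0) for 1 to 3 and 1.01-fold (0.616 to 1.58) for 3 to 6. For 6 to 10 it was 3.28-fold higher.

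MESP1 and FGF4 were less far apart at the highest scores. At scores of 10 and over MESP1 was at 197.8 CPM in the members and 120.7 CPM in the others (1.64-fold, 1.38 to 1.96), with UMIs in 83 of 105 and 12 of 25 cells. MESP1 was uneven among the 628 other streak cells, with an upper quartile of 0 and 21.8 UMIs per 10000 in the highest cell. The part of single cells in the MESP1 levels by streak score was not tested. FGF4 was at 109.7 and 106.9 CPM (1.03-fold, 0.847 to 1.25). MESP1 was 7.16-fold higher in the members at scores of 3 to 6 and 2.86-fold at 6 to 10, so its distance between the sets shrank as the streak score grew. The ratios of GATA6, FGF17 and BMP2 shrank as well. GATA6 went from 71.8-fold at scores of 1 to 3, with UMIs in 2 of 13 members, to 2.99-fold at 10 and over. FGF17 went from 59.9-fold to 6.38-fold between the same ranges. BMP2 was 12.4-fold higher at 1 to 3, 15.3-fold at 3 to 6, 4.52-fold at 6 to 10 and 4.48-fold at 10 and over. When all members were set against the 21 other streak cells of at least the members' median streak score, the log2 ratios of MESP1 and FGF4 turned to -0.15 and -0.38, from 3.46 and 1.61. With the 101 members of such scores alone against the same 21 cells, MESP1 was 1.46-fold higher (1.22 to 1.75) and FGF4 stood at 0.933 times (0.767 to 1.14). With all members, the log2 ratio of LHX1 was 2.34 and that of DKK1 2.99. MIXL1 and EOMES were 1.33-fold and 1.19-fold apart at scores of 10 and over, so the cells were not fully matched on the streak genes there.

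**Figure D4:**
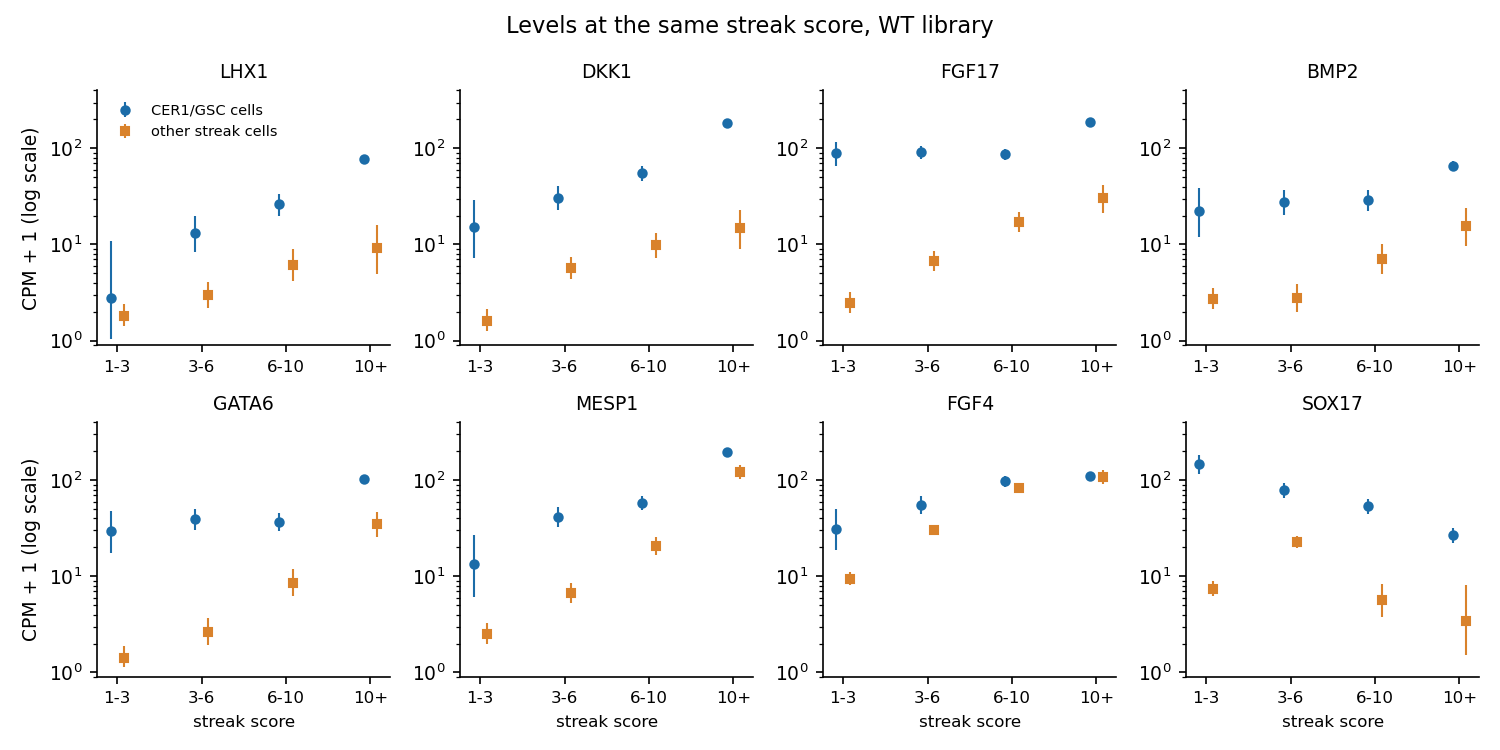
Levels of 8 genes (CPM + 1, log axis) in the WT CER1/GSC cells (circles) and other streak cells (squares) within 4 ranges of the streak score (MIXL1, EOMES and TBXT UMIs per 10000), with 95% counting intervals. LHX1, DKK1, FGF17 and BMP2 keep a gap up to the highest range, though those of FGF17 and BMP2 narrow. The gaps of MESP1 and GATA6 narrow and that of FGF4 closes. SOX17 in the members is at 144.8 CPM in the lowest and 25.6 CPM in the highest range.

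Within the set, levels went with the CER1+GSC score. The 76 members of scores 1 to 2 had LHX1 at 10.5 CPM (7.41 to 14.4), the 41 of scores 2 to 5 at 14.6, the 34 of 5 to 10 at 73.4 and the 51 of 10 and over at 118.5 CPM (104.6 to 133.8). MESP1 went from 48.5 through 89.8 to 215.2 and 212.1 CPM, level between the upper ranges. DKK4 had 0 UMIs in the members of scores 1 to 2 and stood at 56.3 CPM at 10 and over. NANOG was at 63.1, 62.6, 27.5 and 30.9 CPM, and PODXL at 58.7, 24.2, 13.5 and 9.54 CPM. Over the 202 cells, which share 1 library and whose values share the cell's depth as divisor, Spearman's rho with the score was 0.62 for FGF17, 0.59 for GATA6, 0.58 for DKK1 and 0.54 for LHX1, while it was -0.44 for POU5F1 and 0.09 for TBXT. The score is mostly CER1, with 6128 CER1 and 716 GSC UMIs in the members. For FGF17, GATA6, DKK1 and LHX1, rho with CER1 alone was 0.62, 0.57, 0.57 and 0.52. With GSC alone it was 0.23, 0.23, 0.24 and 0.30. CER1 and GSC themselves had a rho of only 0.17 with each other, and cells were chosen on their sum, which bears on that value.

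The members were also split by which gene reached the rule. The 14 members that reached the rule on GSC but not on CER1 had FGF17 at 20.4 CPM (10.6 to 35.7) and CYP26A1 at 13.6 CPM (5.88 to 26.8). In the 116 that reached it on CER1 but not on GSC these were at 141.8 and 86.4 CPM. SOX17 had 1 UMI in the former and stood at 56.0 CPM in the latter, and PDGFRA had 0 UMIs and stood at 15.2 CPM. The 23 members that reached the rule only through the sum had 0 UMIs of SOX17 and of PDGFRA too, with FGF17 at 49.3 CPM. MIXL1 was near in both, at 595.7 and 667.7 CPM. The CER1+GSC scores of these groups differ by construction, and the part of the score in these values was not tested.

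SOX17, a factor of definitive endoderm and germ cells, was uneven between members. It stood at 47.9 CPM against 10.8 CPM in the other streak cells (4.45-fold, 3.84 to 5.15), but 51.2% of its 453 UMIs came from 5 of the 202 cells. Of 44 WT cells with SOX17 of at least 1 per 10000, 17 were members, 14 were other streak cells and 13 met neither rule. The 17 members, picked after the values were seen, had a median streak score of 6.16 against 10.8 in the other 185. By streak range SOX17 was at 144.8 CPM in the members of scores 1 to 3, with UMIs in 4 of 13 cells, and at 25.6 CPM in those of 10 and over, with UMIs in 23 of 105. SOX2 had 1 UMI in the 17 cells and 277 in the others, 1.21 against 32.1 CPM. NODAL was at 74.0 CPM against 203.8 CPM in the other members (0.363-fold, 0.277 to 0.469), while PRDM1, a repressor used in endoderm and germ cells, was at 41.3 CPM against 6.26 CPM (6.59-fold, 4.16 to 10.3). FOXA2 had 7 UMIs in 3 of the 17 cells and CXCR4 had 0. MESP1 was at 127.4 CPM in the 17 and 123.8 CPM in the others. In thinned cells, 15 members carried both genes, 67 MESP1 only, 14 SOX17 only and 106 neither.

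MESP1 was more often detected in members that carried GATA6 or LHX1. Each of these genes rose with the CER1+GSC score within the set, with rho of 0.42 for MESP1, 0.59 for GATA6 and 0.54 for LHX1. With GSC alone rho was 0.12, 0.23 and 0.30. The part of the score in the shared detection was not tested. In thinned cells MESP1 was detected in 67.9% (56.6 to 77.8) of the 81 members with GATA6 and 22.3% (15.2 to 30.8) of the 121 without. It was detected in 65.5% (51.9 to 77.5) of those with LHX1 and 30.6% (23.2 to 38.8) of those without. For OTX2 these were 57.4% (42.2 to 71.7) and 35.5% (28.0 to 43.6), and for SOX17 51.7% (32.5 to 70.6) and 38.7% (31.4 to 46.4), with intervals that overlap. With NANOG the order was the other way, 29.5% of members with and 47.6% of members without it, with intervals that touch (19.7 to 40.9 and 38.5 to 56.7).

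The GATA3 KO library held 9 CER1/GSC cells with 413840 UMIs in all. Their CER1+GSC scores were 7.49, 4.37, 3.35, 2.12, 1.53, 1.53, 1.51, 1.51 and 1.24. LHX1 had 0 UMIs in each of the 9 cells, and so had MESP1. At the level of the WT members, 19.6 UMIs of LHX1 and 51.4 of MESP1 would have fallen on this total. GATA6 had 2 UMIs, in cells 1 and 3 of that order, and DKK1 had 3, all in cell 8. BMP2 had 2 UMIs, FGF17 10 (24.2 CPM, 11.6 to 44.4) and CYP26A1 3.

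The GATA3 KO cells had lower scores than most WT members, so they were also set beside the 70 WT members within their ranges of both the CER1+GSC and the streak score, a choice made after the data were seen. These 70 cells had a median streak score of 6.20, against 5.57 in the 9. CER1, GSC, MIXL1 and EOMES then stood at 1.09, 1.11, 0.908 and 0.890 times the WT level. MESP1, with UMIs in 23 of the 70 WT cells, would have given 11.4 UMIs and gave 0, which makes it at least 3.79-fold lower against a floor of 3 counts. LHX1, with UMIs in 16 of the 70, would have given 5.26 and gave 0, at least 1.75-fold lower. GATA6 (2 UMIs against 9.42) was at 0.212 times the WT level (0.0253 to 0.794). For DKK1 (3 against 7.83) and BMP2 (2 against 7.09) the interval of the ratio reached past 1. MESP1, LHX1 and GATA6 were uneven between WT cells, so these counting intervals are too narrow for 9 cells, and the KO values were as low without cell 1 (MESP1 and LHX1 at 0, GATA6 at 1 UMI).

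Other genes went the opposite way. Against the 113 WT members of like CER1+GSC score, 134 of 2911 genes that reached 50 CPM in either set (4.6%) were at least 2-fold higher in the 9 cells and 94 (3.23%) at least 2-fold lower; against all WT members these were 138 (4.75%) and 94 (3.24%) of 2904. LEFTY1, a Nodal inhibitor and target, was at 84.6 CPM (58.9 to 117.6) in the GATA3 KO members, and its 35 UMIs lay in 3 of the 9 cells, 13, 17 and 5 of them in cells 2, 5 and 9. LEFTY2 was at 77.3 CPM with UMIs in 6 cells. In the 70 matched WT cells LEFTY1 and LEFTY2 stood at 9.75 and 10.3 CPM. NODAL was at 304.5 CPM against 184.1 CPM in the matched WT cells (1.65-fold, 1.35 to 2.01), and had UMIs in each of the 9 cells, from 6 to 25. The pluripotency genes POU5F1 (1421 against 802.7 CPM), NANOG (125.7 against 64.7 CPM) and SOX2 (79.7 against 29.6 CPM) were 1.77-fold, 1.94-fold and 2.70-fold higher. SOX2 had 0 UMIs in cells 1 and 6 of the 9 and 9 UMIs in cell 2.

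Some of these levels were shared by the other streak cells of the GATA3 KO library. Its 93 other streak cells had ID1 at 1474 CPM, ACTC1 (cardiac actin) at 318.9 CPM and POU5F1 at 1705 CPM, near the 1764, 398.7 and 1421 CPM of its 9 CER1/GSC cells. NANOG and SOX2 had medians of 1.30 and 0.97 UMIs per 10000 in the 93 cells, near the 1.25 and 0.80 of the 9. In the WT other streak cells these medians were 0.80 and 0.22. POU5F1 was also higher in GATA3 KO than in WT SOX2-rich cells without streak UMIs, at medians of 14.6 and 8.40. The non-coding RNAs LINC00458, AL353751.1 and AL009031.1, at 44.9, 2.98 and 5.04 CPM in those 93 cells, were likewise low in the 9 (70.1, 7.25 and 12.1 CPM) beside the WT members (494.5, 79.5 and 82.0 CPM). Inside the GATA3 KO library, the 9 cells stood above the 93 in FGF4 (99.1 against 7.10 CPM, 14.0-fold, 8.54 to 23.0), SOX17 (29.0 against 2.29 CPM, with 10 of its 12 UMIs in 1 cell), OTX2 (21.7 against 6.87 CPM), FGF19 (21.7 against 6.64 CPM) and LEFTY2 (77.3 against 15.6 CPM). OTX2 was not particular to the 9 cells. After thinning it was detected in 2 of them (22.2%) and in 31.1% of 2809 SOX2-rich GATA3 KO cells without streak UMIs. FGF17, with 10 UMIs in the 9 and 0 in the 93, was at least 35.2-fold higher. The 9 cells had a median streak score of 5.57 and the 93 one of 1.61, so these ratios are not matched on streak level. In WT cells of like streak score the gap of FGF4 closed, to 1.03-fold at 10 and over. For FGF4, FGF17, FGF19, OTX2 and SOX17 the direction was that of the WT library, for LEFTY2 it was the opposite one (5.82 against 9.53 CPM in WT cells), and for MESP1 and LHX1 it could not be seen in 9 cells.

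**Figure D5:**
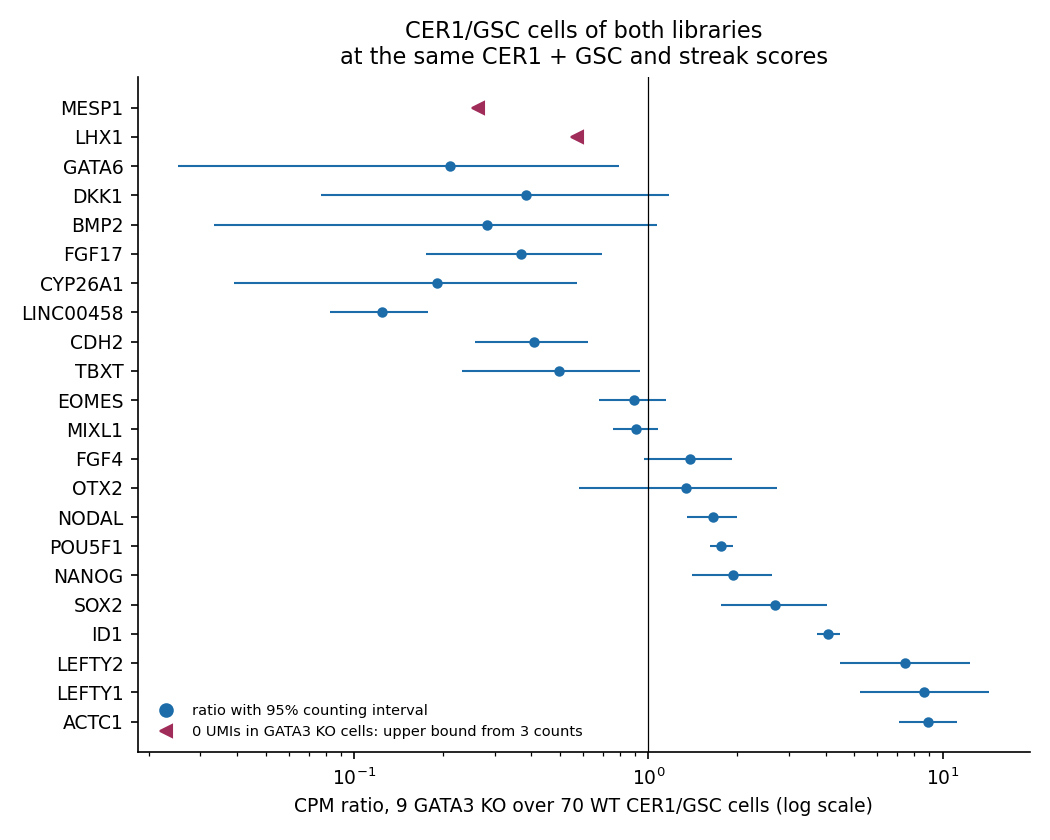
Ratio of CPM (log axis) in the 9 GATA3 KO CER1/GSC cells over the 70 WT CER1/GSC cells within the same ranges of CER1+GSC and streak score. Circles are ratios with 95% counting intervals, triangles are upper bounds for MESP1 and LHX1 (0 UMIs in the 9 cells), and genes from NODAL to ACTC1 lie right of 1 while MIXL1 and EOMES lie near it.

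The limits on cells kept other cells out of these counts. Among WT cells over 7500 detected genes, 69 of 1012 (6.82%, 5.34 to 8.55) met the CER1+GSC threshold, against 1 of 1265 in the GATA3 KO library. Among cells under 10000 UMIs that met the other limits these were 15 of 346 and 1 of 412. Of 271 WT and 506 GATA3 KO cells over the mitochondrial limit, 87 and 221 met the other limits, and 4 and 0 of these reached the threshold, the latter of which allows a share of up to 1.36%. The share of CER1/GSC cells was thus lower in the GATA3 KO library also among the cells left out.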

How the data were processed

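Single-cell libraries were made with 10x Genomics 3′ v3 chemistry, and the deposited files hold raw UMI counts for each gene and cell barcode, which the authors obtained with Cell Ranger 3.0.2 on GRCh38. These counts were used as deposited. Cells were kept by the limits given with the results, UMIs were summed over a set of cells and divided by the total (CPM), and ratios are of CPM or, for calls and log2 values, of CPM plus a pseudocount of 1. A call means at least 2-fold, for genes that reach 10 CPM in either set (50 CPM for the GATA3 KO cells). CPM carry exact Poisson, ratios exact conditional binomial and shares exact Clopper-Pearson 95% intervals, and a count of 0 is taken as a floor of 3 counts.

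With 1 library per group and cells that are not replicates, no p-value was computed. The calculation was tested on simulated data (python 3.11.15, numpy 2.4.6, scipy 1.17.1). Scrublet (scanpy 1.11.5) called 1 WT and 2 GATA3 KO cells as doublets, too few for a caller that works here, so doublets were not removed, and leaving out the 116 and 310 highest scores was tried. Positions are those of GENCODE v44 by gene identifier, which placed 33113 of 33538 genes, and promoter windows are those of RefSeq. All 212 genes of the lists were found.

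The cells, gene lists and tests were chosen with earlier results of these data known. Genes named are the rule and marker genes, list members past 2-fold or of highest level, the 12 highest and 8 lowest ratios of at least 20 CPM with the same sign in the mean of per-cell CPM, and the 6 highest and lowest ratios of the GATA3 KO cells. Defining genes of a list that were near 0, and genes named in the comparisons by streak score, by SOX17 and within the GATA3 KO library, were picked after their values were seen.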

Additional observations from a re-analysis of the deposited data

Results flagged for a closer look

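Among the genes named, HPGD was the only one at least 2-fold apart between CER1/GSC cells and other streak cells in opposite directions in the 2 libraries. Its log2 ratio was -1.42 in the WT library and 1.06 in the GATA3 KO library, where it stood at 224.7 CPM in 9 cells against 107.4 CPM in 93. In WT cells of like streak score the ratio was 1.26 (1.01 to 1.56) at scores of 6 to 10 and 0.819 (0.575 to 1.19) at 10 and over, so the WT direction depended on the streak score. The 9 and 93 GATA3 KO cells differed in streak score too, with medians of 5.57 and 1.61, and the difference in direction was not tested.

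Cells that the limit on detected genes leaves out of the comparisons also held CER1/GSC cells. In the WT library 6.82% of them met the threshold, against 0.0791% (1 of 1265) in the GATA3 KO library.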

How the results depend on the processing

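The shares follow the threshold. At 2 UMIs of CER1 and GSC per 10000 in place of 1, the WT share was 5.80%, that of WT streak cells 15.1% and the GATA3 KO share 0.0991%, and 55 genes were at least 2-fold lower. At 0.5 per 10000 these were 13.2%, 32.6%, 0.495% and 9 genes, and with the rule applied to cells thinned to 10000 UMIs 13.9%, 28.5%, 0.867% and 17 genes. The GATA3 KO share was the lower one under each of these. With no minimum CPM, 127 genes were higher and 74 lower, and with a minimum of 50 CPM 21 and 7. Against other streak cells of at least the members' median streak score, 54 genes were lower, and the log2 ratios of MESP1 and FGF4 reversed to -0.15 and -0.38, there being 21 such cells. In the same alternative the log2 ratios of SOX2, NODAL, LEFTY1 and KDR changed sign, to 0.30, -0.02, 0.79 and 0.20, and that of GATA6 fell under 2-fold, to 0.86. With members of such streak scores only, MESP1 was 1.46-fold higher and FGF4 at 0.933 times. The other 63 of 80 recomputed shares, counts and medians stayed within their interval, or within 1.5 times for counts, among them all of those without a limit on genes or mitochondrial UMIs, at 5000 or 20000 UMIs, and without the highest doublet scores. LHX1, GATA6, DKK1, BMP2, FGF17, OTX2 and SOX17 kept their direction in 16 of 16 alternatives, and FST, near 0, in 10 of 16. Beside WT members matched on both scores, the log2 ratios of the GATA3 KO cells moved to -0.14 for MIXL1 and -1.27 for DKK1, from -1.02 and -3.78. No paired analysis was possible because each group has 1 library and no result comes from a test. In the 9 GATA3 KO cells a floor of 3 counts is 7.25 CPM.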
